A study of Mus musculus with 8 samples.

Results

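Expression of 10 genes of the insulin-like growth factor (IGF) system was examined in mouse embryonic fibroblasts (MEFs): the ligand gene Igf1, the receptor gene Igf1r, the IGF-binding protein genes Igfbp2, Igfbp3, Igfbp4, Igfbp5, Igfbp6 and Igfbp7, the protease gene Pappa and the mRNA-binding protein gene Igf2bp2. The genes were chosen by name for their place in growth signalling of fibroblasts. They are 10 of the 19493 mouse genes in the count table, and all 10 were among the 16470 genes with enough counts to be tested. RNAseq libraries had been made with a stranded mRNA kit from total RNA of 4 WT and 4 Dp1Tyb MEF cultures. ERCC synthetic RNAs had been spiked into a fixed number of cells before extraction. Both genotypes had the strain background C57BL/6J.129P2 and came from E14.5 embryos. The WT cells are labelled Wild-type and the Dp1Tyb cells Dp(16Lipi-Zbtb21)1TybEmcf, an additional copy of the part of chromosome 16 from Lipi to Zbtb21 that is orthologous to human chromosome 21. Per the study's methods head and viscera were removed from MEF embryos. The cells were grown in serum-containing medium, passaged, and lifted with trypsin before RNA was taken. The methods name littermate embryos for MEFs, without stating whether this covers the libraries with spike-ins. The comparison addresses whether the additional chromosome 16 segment is accompanied by different expression of these growth factor genes.

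IGF1 and IGF2 are secreted peptides that activate the receptor tyrosine kinase IGF1R, which signals through insulin receptor substrates to the PI3 kinase, AKT and mTOR pathway and to the MAP kinase pathway. Most of the secreted IGF is held by binding proteins, which extend its life, keep it from the receptor or place it in the extracellular matrix. Proteases such as pappalysin-1, the product of Pappa, cut some binding proteins and thereby release the ligand. Embryonic fibroblasts are a classical cell type for this pathway, since they make ligand, receptor and binding proteins and depend on IGF in serum for growth.

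None of the 10 genes lies in the additional segment, which runs from 75540514 to 97962622 on chromosome 16 (GRCm38). Igf2bp2, at chr16:22059009-22163299, is on the same chromosome but ends 53.4 Mb before the segment starts. Igfbp2, at chr1:72824503-72852474 on the plus strand, and Igfbp5, at chr1:72857932-72874884 on the minus strand, are neighbours that point towards each other and lie 5457 bases apart. Igfbp3 is at chr11:7206086-7213923 and Igfbp4 at chr11:99041244-99054392. The other genes are each the only member on their chromosome. They are Igf1 at chr10:87858265-87937042, Igf1r at chr7:67952827-68233668, Igfbp6 at chr15:102144362-102149511, Igfbp7 at chr5:77349240-77408041 and Pappa at chr4:65124174-65357509. Exons of Igfbp7 overlap exons of Polr2b on the opposite strand, and the strand option used for counting is not given in the sources used here, so the Igfbp7 values are uncertain to the extent that Polr2b reads were counted.

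Promoter sequences are shown for 5 of the genes because the results below turn on them: Igfbp2 and Igfbp3 as genes that varied widely between cultures, Igf1r and Igf2bp2 as genes that varied least with relative normalisation, and Igfbp7 as the gene with the lowest p-value. Each is the 250 bases before the start that RefSeq annotates (GRCm38.p6), read 5′ to 3′ on the gene's strand, with CpG dinucleotides in capitals. RefSeq starts were matched for 9 of the 10 genes.
Igfbp2 promoter, chr1:72824230-72824479, plus strand: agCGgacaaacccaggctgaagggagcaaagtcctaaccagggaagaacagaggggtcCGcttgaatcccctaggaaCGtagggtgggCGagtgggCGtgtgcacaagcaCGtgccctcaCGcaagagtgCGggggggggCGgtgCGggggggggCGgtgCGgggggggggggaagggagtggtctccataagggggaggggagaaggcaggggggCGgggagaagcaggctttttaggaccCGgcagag
Igfbp3 promoter, chr11:7213924-7214173, minus strand: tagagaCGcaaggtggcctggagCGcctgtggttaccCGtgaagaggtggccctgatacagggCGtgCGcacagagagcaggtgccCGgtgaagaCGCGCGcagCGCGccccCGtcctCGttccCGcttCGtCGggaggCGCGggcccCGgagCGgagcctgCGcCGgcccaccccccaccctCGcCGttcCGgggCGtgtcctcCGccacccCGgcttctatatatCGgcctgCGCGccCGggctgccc
Igfbp7 promoter, chr5:77408046-77408295, minus strand: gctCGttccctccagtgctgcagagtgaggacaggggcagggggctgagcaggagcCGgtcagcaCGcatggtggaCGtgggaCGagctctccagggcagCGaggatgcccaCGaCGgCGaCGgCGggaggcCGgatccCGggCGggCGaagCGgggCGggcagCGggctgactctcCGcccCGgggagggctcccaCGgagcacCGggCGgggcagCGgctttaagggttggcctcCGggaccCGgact
Igf1r promoter, chr7:67952007-67952256, plus strand: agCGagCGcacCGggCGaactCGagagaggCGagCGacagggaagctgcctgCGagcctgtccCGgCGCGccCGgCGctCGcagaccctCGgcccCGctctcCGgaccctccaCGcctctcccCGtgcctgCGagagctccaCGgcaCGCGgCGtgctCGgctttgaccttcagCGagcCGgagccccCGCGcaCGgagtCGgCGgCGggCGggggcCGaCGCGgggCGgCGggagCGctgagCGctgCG
Igf2bp2 promoter, chr16:22163300-22163549, minus strand: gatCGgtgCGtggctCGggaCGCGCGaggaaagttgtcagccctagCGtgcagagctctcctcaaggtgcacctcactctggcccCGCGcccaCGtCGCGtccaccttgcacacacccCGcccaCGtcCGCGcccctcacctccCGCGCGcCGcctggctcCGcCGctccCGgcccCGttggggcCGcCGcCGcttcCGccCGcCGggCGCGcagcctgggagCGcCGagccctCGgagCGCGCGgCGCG

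CpG dinucleotides were dense before most of these genes. The Igf1r window held 42 and the Igf2bp2 window 40, beside a median of 6 over 32851 RefSeq windows of the same length. Igfbp3 had 32, Igfbp7 26, Igfbp4 22, Igfbp2 14 at the start shown (11 at another annotated start), Igfbp5 10, Igfbp6 7 and Igf1 5. The Igf1 window lies inside the gene as GENCODE draws it, in untranslated exon sequence of transcripts that start further upstream, and its letters are not shown. The letters TATAAA, searched on both strands, occurred in 2 members, at position −28 of Igfbp4 and −148 of Igfbp6 relative to the start, and in 12.4% of all windows. The GC box letters GGGCGG were found before Igfbp2, Igfbp7, Igf1r and Igf2bp2, and in 32.7% of all windows. The E-box letters CACGTG were found before Igfbp2 and in 6.02% of all windows. The letters GTAAACA, which FOXO factors are known to bind, were in none of the members' windows and in 3.17% of all. These matches describe letters only, and the choice of genes shown was made after their values were known.

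Library totals lay between 17698900 and 26471758 counts, and the 10 genes were counted deeply enough that counting error alone was at most 7.39% for any library, reached by Igfbp2. Levels are given as CPM, that is counts per 1000000 counts of scaled library size, with relative normalisation, which sets the bulk of genes equal between libraries, unless spike-in normalisation is named, which sets the ERCC RNAs equal and so keeps differences in RNA per cell. Endogenous RNA per spike-in ranged from 0.713 to 1.19 of the series' typical level in WT and from 0.688 to 1.31 in Dp1Tyb. Fibroblast marker genes were high throughout: all 10 listed were counted, at a summed 22272 to 31832 CPM. Summed macrophage markers reached 152 to 374 CPM, smooth muscle markers 477 to 2831 CPM and endothelial markers 33.6 to 80.4 CPM. In such bulk cultures fewer cells of a type and less RNA per cell cannot be told apart. The labels do not tie the libraries to separate embryos, so the tests measure the spread between these libraries.

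**Figure D1:**
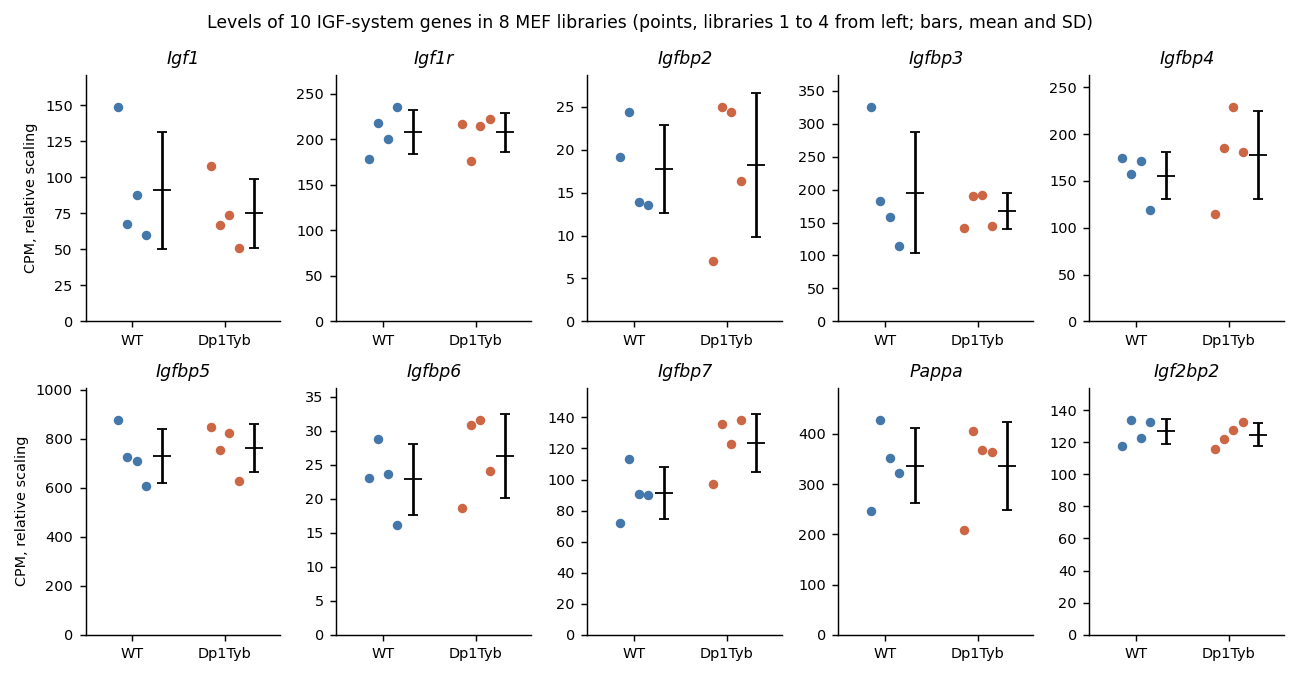
Levels of the 10 genes in CPM with relative normalisation (vertical axes, linear from 0) in 4 WT (blue) and 4 Dp1Tyb (orange) libraries, with mean and SD beside the points. The points of the genotypes overlap for every gene, and single libraries such as WT 1 for Igfbp3 (326 CPM) and Dp1Tyb 1 for Igfbp2 (7.08 CPM) stand away from their group.

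No member passed the test between Dp1Tyb and WT under either normalisation. Igfbp7, which encodes a secreted protein related to the IGF-binding proteins with weaker IGF affinity, was the one member below 0.05 before adjustment, with a log2 fold change of 0.43 and relative normalisation. Those of the receptor gene Igf1r, of Pappa and of Igf2bp2 were between −0.02 and 0.00, and that of the ligand gene Igf1 was −0.28. With edgeR's quasi-likelihood test adjusted over 16470 genes, the adjusted p was 1.00 for each of the 10 genes under both normalisations. Calls were rare among all genes too: 0.0182% of them passed with relative and 0.0121% with spike-in normalisation. An unadjusted p under 0.05 was reached by 1 of the 10 genes with relative normalisation, beside 4.27% of all genes, and by 0 of the 10 with spike-in normalisation, beside 1.17%. Libraries of the genotypes overlapped for all 10 genes under both. With relative normalisation 1.64% of all genes lay above WT in every Dp1Tyb library and 1.52% below, and with spike-in normalisation 0.285% lay above and 0.14% below.

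The choice of normalisation shifted the median fold change of all genes, and some small differences changed sign. The shift was not the same for every member. The median log2 fold change over all tested genes was 0.01 with relative and 0.11 with spike-in normalisation. The median over the 10 members was 0.02 and 0.12, respectively, with 5 members higher and 5 lower in the first and 8 higher and 2 lower in the second. Igf1r, Pappa and Igf2bp2 were on opposite sides of 0 under the 2 normalisations.

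**Figure D2:**
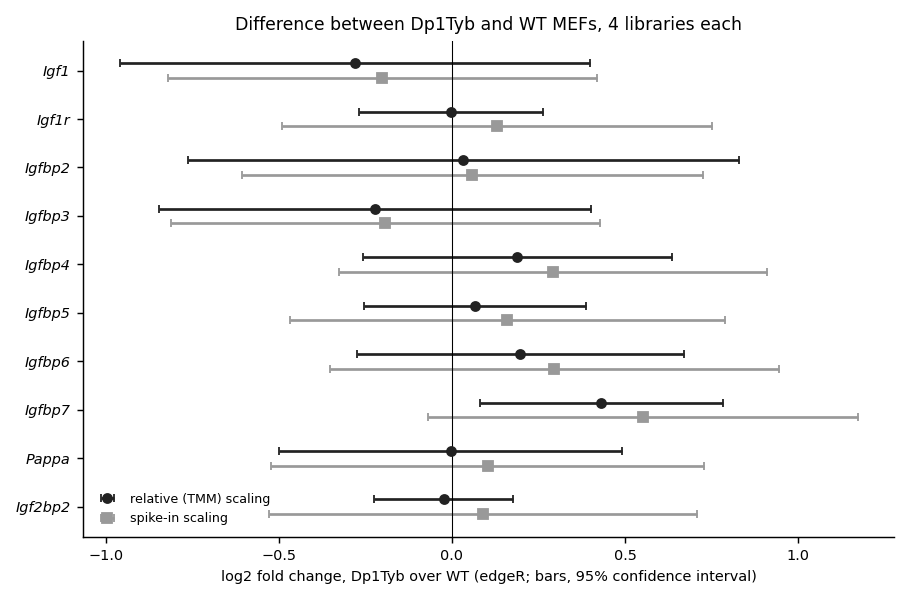
Log2 fold changes of Dp1Tyb over WT from edgeR (horizontal axis, 95% confidence intervals) for each gene with relative (circles) and spike-in (squares) normalisation. All intervals hold 0 except that of Igfbp7 with relative normalisation (0.08 to 0.78), and for Igf1r and Igf2bp2 the spike-in interval is clearly the wider one.

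Igf1 encodes the ligand that acts through IGF1R. Its level was 149, 67.4, 88.0 and 59.7 CPM in WT libraries 1 to 4 and 108, 67.2, 74.0 and 50.9 CPM in Dp1Tyb libraries 1 to 4. Library 1 was the highest of each genotype. The groups overlapped from 59.7 to 108 CPM, WT library 1 lay above every Dp1Tyb library and Dp1Tyb library 4 lay below every WT library. The mean was 91.1 ± 40.5 CPM in WT and 75.0 ± 24.0 CPM in Dp1Tyb (SD, n = 4 each). The log2 fold change was −0.28 (SE 0.30, 95% interval −0.96 to 0.40, adjusted p = 1.00 by edgeR), and without WT library 1 it was 0.07. With spike-in normalisation WT library 1 reached 177 CPM, beside 59.5 to 69.8 CPM in the other WT libraries, and the log2 fold change was −0.20 (SE 0.32).

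Igf1r encodes the receptor tyrosine kinase. With relative normalisation it was among the even members, with 178, 217, 200 and 236 CPM in WT and 217, 176, 214 and 222 CPM in Dp1Tyb. The means of 207.9 ± 24.5 and 207.4 ± 21.1 CPM were nearly equal, and the interval of the log2 fold change, −0.27 to 0.26, leaves room for differences of up to that size in either direction. Per kilobase of exon the ligand transcript was less abundant than the receptor transcript in 7 of 8 libraries, and in WT library 1 the ratio of Igf1 to Igf1r was 1.42, beside 0.388 to 0.844 in the others.

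Igfbp5 encodes a binding protein that also attaches to extracellular matrix, and its transcript was the most abundant of the members per kilobase. WT libraries held 876, 725, 707 and 607 CPM and Dp1Tyb libraries 849, 754, 822 and 629 CPM. Every Dp1Tyb value lay inside the WT range, and the log2 fold change was 0.07 (SE 0.14, 95% interval −0.25 to 0.39, adjusted p = 1.00 by edgeR).

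Igfbp7 had 72.3, 113, 90.4 and 90.3 CPM in WT and 97.0, 136, 123 and 138 CPM in Dp1Tyb. Dp1Tyb libraries 2, 3 and 4 lay above every WT library, and Dp1Tyb library 1 lay below WT library 2. The means were 91.5 ± 16.8 and 123.5 ± 18.9 CPM (SD, n = 4 each), a log2 fold change of 0.43 with SE 0.16. The unadjusted edgeR p was 0.0206 and the adjusted p 1.00, so the difference did not survive adjustment over all genes. Spike-in normalisation gave 85.7, 99.9, 64.5 and 106 CPM in WT and 117, 93.5, 129 and 182 CPM in Dp1Tyb. There Dp1Tyb libraries 1, 3 and 4 lay above every WT library and library 2 did not. The spike-in log2 fold change was 0.55 (SE 0.32, 95% interval −0.07 to 1.17), at an unadjusted edgeR p of 0.0817. Leaving out Dp1Tyb library 4 gave 0.35 and leaving out Dp1Tyb library 2 gave 0.69, with edgeR p-values of 0.0145 unadjusted and 0.764 adjusted for the latter. For Polr2b, the overlapping gene on the other strand, the relative log2 fold change was 0.04 (SE 0.12).

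Igfbp3 encodes the main carrier of IGF in serum. Its values were 326, 182, 158 and 114 CPM in WT and 142, 189, 192 and 145 CPM in Dp1Tyb. WT library 1 was the highest and WT library 4 the lowest of all 8, so that the Dp1Tyb values lay inside the WT range. The log2 fold change was −0.22 (SE 0.28, 95% interval −0.84 to 0.40), and it turned to 0.15 without WT library 1.

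Igfbp4 and Pappa are linked in function, since pappalysin-1 cleaves IGFBP4 when IGF is bound. Igfbp4 was at 174, 158, 171 and 119 CPM in WT and 115, 185, 229 and 180.5 CPM in Dp1Tyb. Dp1Tyb libraries 2, 3 and 4 were above every WT library and Dp1Tyb library 1 was below all of them. The log2 fold change was 0.19 (SE 0.20, 95% interval −0.26 to 0.64). Without Dp1Tyb library 1 it was 0.35, and the edgeR p-values were 0.0453 unadjusted and 0.814 adjusted. Without Dp1Tyb library 3 or WT library 4 the value was 0.049 or 0.083. Pappa stood at 246, 428, 352 and 323 CPM in WT and 208, 405, 368 and 363 CPM in Dp1Tyb. Library 1 was the lowest of each genotype, and the means of 337.0 ± 75.1 and 336.1 ± 87.6 CPM were nearly the same. The ratio of Pappa to Igfbp4 per kilobase was 0.889 ± 0.250 in WT and 0.762 ± 0.101 in Dp1Tyb. That difference was smaller than the WT SD and larger than the Dp1Tyb SD, and it was not tested.

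Igfbp6 encodes a binding protein that prefers IGF2. It had 23.0, 28.8, 23.6 and 16.1 CPM in WT and 18.6, 30.9, 31.6 and 24.0 CPM in Dp1Tyb, with a log2 fold change of 0.20 (SE 0.21, 95% interval −0.27 to 0.67). Leaving out WT library 4 or WT library 2 gave 0.064 or 0.34. Igfbp2, a binding protein gene high in many embryonic tissues, had the lowest counts of the 10. Its values were 19.2, 24.4, 13.9 and 13.6 CPM in WT and 7.08, 25.0, 24.4 and 16.4 CPM in Dp1Tyb. Both the lowest and the highest library were Dp1Tyb, and the log2 fold change was 0.03 with a wide interval of −0.76 to 0.83. Without Dp1Tyb library 1 it was 0.30, with an adjusted p of 0.820 by edgeR.

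Igf2bp2 encodes a cytoplasmic protein that binds Igf2 and many other mRNAs. It was the most even member with relative normalisation: 118, 134, 123 and 132 CPM in WT and 116, 122, 128 and 133 CPM in Dp1Tyb. The log2 fold change was −0.02 (SE 0.090, 95% interval −0.22 to 0.18). That interval was the narrowest of the 10 with relative normalisation, while with spike-in normalisation the SE was 0.32.

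Ranked by mean RPKM, that is CPM with relative normalisation divided by exon length in kilobases, the members spanned a range of 14.8-fold over the 8 libraries. Igfbp5 led with 124 ± 16.4 RPKM (SD, n = 8), followed by Igfbp7 with 88.9 ± 19.7, Igfbp3 with 57.8 ± 20.5, Igfbp4 with 37.7 ± 8.35 and Pappa with 30.5 ± 6.85. Igfbp6 had 22.1 ± 5.01, Igf2bp2 17.0 ± 0.948, Igf1r 12.4 ± 1.26, Igfbp2 9.74 ± 3.48 and Igf1 8.38 ± 3.23 RPKM. Neighbours in this order that did not differ beyond their spread were Igfbp4 and Pappa, Igf1r and Igfbp2, and Igfbp2 and Igf1, for which the mean log2 difference was smaller than its SD over libraries. Igfbp3 was above Igfbp4, Pappa above Igfbp6 and Igf2bp2 above Igf1r in 8 of 8 libraries. The order of Igfbp6 and Igf2bp2 depended on the length used: with the longest transcript in place of all exons Igf2bp2 had 25.4 RPKM, above Igfbp6 at 22.1.

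The 6 binding protein transcripts together reached 380, 347, 310 and 261 RPKM in WT and 314, 382, 393 and 337 RPKM in Dp1Tyb, so the summed pool overlapped between genotypes. Igfbp5 made up 36.7 ± 4.33% of this pool (SD, n = 8), Igfbp7 26.3 ± 5.24%, Igfbp3 16.8 ± 4.42%, Igfbp4 11.0 ± 1.55%, Igfbp6 6.45 ± 0.886% and Igfbp2 2.82 ± 0.804%. Igfbp7 had 23.8 ± 5.73% in WT and 28.7 ± 3.93% in Dp1Tyb, a difference smaller than the WT SD and larger than the Dp1Tyb SD, which was not tested. WT library 1 stood apart in its mix, with 15.7% Igfbp7 and 27.4% Igfbp3. Its ratio of Igfbp3 to Igfbp7 was 1.74, beside 0.405 to 0.675 in the other 7 libraries. Dp1Tyb library 1 stood apart in another way, with 45.0% Igfbp5 and 1.22% Igfbp2, a ratio of 36.9 where the other libraries had 9.16 to 15.7.

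**Figure D3:**
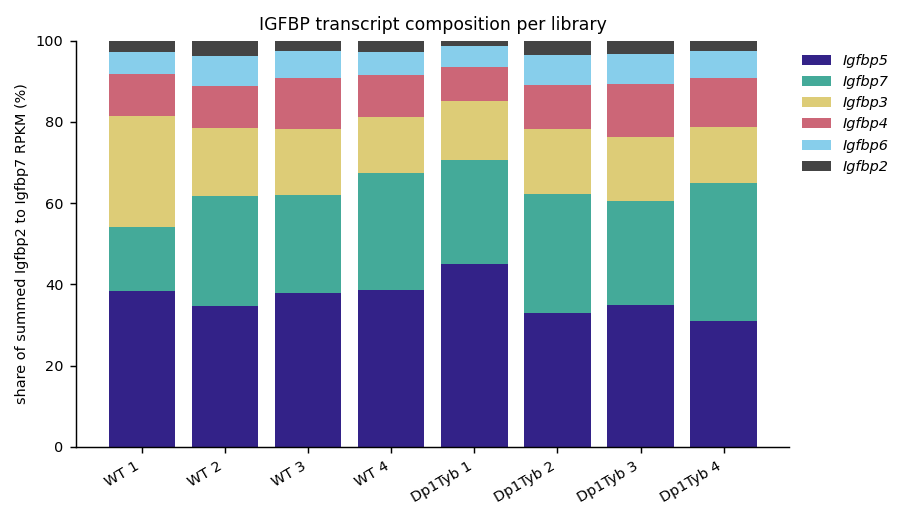
Share of each binding protein gene in the summed RPKM of Igfbp2 to Igfbp7 (vertical axis, percent) in each of 8 libraries. Igfbp5 is the largest share in each bar but that of Dp1Tyb 4, Igfbp3 takes 27.4% in WT 1, and Igfbp2 is thinnest in Dp1Tyb 1 at 1.22%.

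The members differed in how much they varied between cultures of one genotype. The pooled within-genotype SD of log2 CPM was 0.66 for Igfbp2, 0.52 for Igf1, 0.48 for Igfbp3, 0.39 for Pappa, 0.35 for Igfbp6 and 0.35 for Igfbp4. Igfbp7 had 0.25, Igfbp5 0.21, Igf1r 0.16 and Igf2bp2 0.086, beside a median of 0.28 over the 16470 tested genes. Over the 11001 genes averaging 100 counts or more, as all members did, the median was 0.21 and the 90th percentile 0.47, so that Igfbp7 lay above that median and Igfbp2, Igf1 and Igfbp3 above that percentile. Igfbp2 stood at percentile 89.5 of all genes and Igf2bp2 at percentile 3.18. Single cultures carried part of this spread: without Dp1Tyb library 1 the SD of Igfbp2 was 0.38 and that of Igfbp4 0.23, and without WT library 1 that of Igfbp3 was 0.29. With spike-in normalisation the median of all genes rose to 0.48, and the low values of Igf1r and Igf2bp2 rose to 0.49 and 0.41. The order of the members changed with it: Igfbp6 (0.33), Igfbp7 (0.36) and Pappa (0.37) then varied least.

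**Figure D4:**
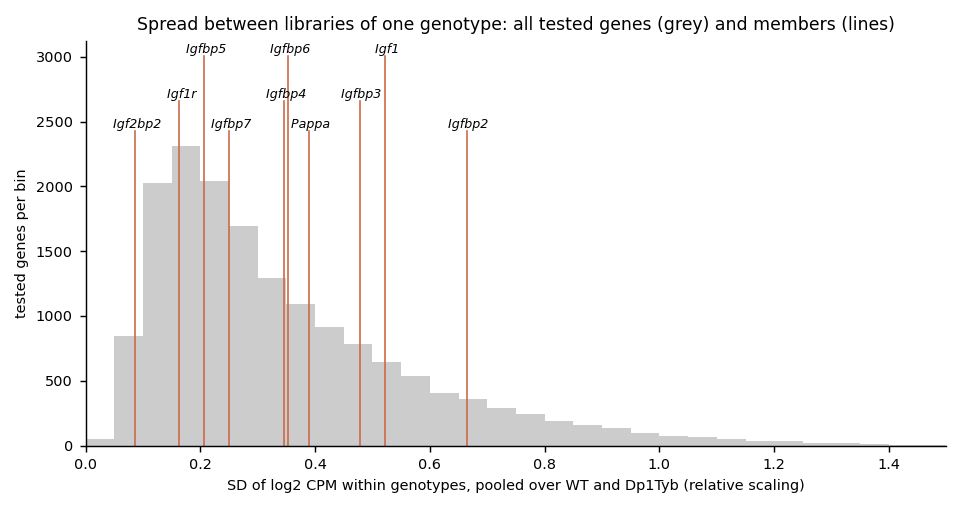
Distribution over 16470 tested genes (grey bars, genes per bin, vertical axis) of the within-genotype SD of log2 CPM with relative normalisation (horizontal axis, cut at 1.5), with a line at each member. Igf2bp2 lies near the left edge at 0.086 and Igfbp2 in the right tail at 0.66.

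High and low libraries differed from member to member. WT library 1 was the highest of the 8 for Igf1, Igfbp3 and Igfbp5 and the lowest for Igfbp7. Dp1Tyb library 1 was the lowest for Igfbp2, Igfbp4, Pappa and Igf2bp2, and WT library 4 was the lowest for Igfbp3, Igfbp5 and Igfbp6. WT library 3 was at neither end for any member.

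Marker lists moved with some of these differences. The summed level of 10 cell-cycle genes, all counted, was 762, 1821, 832 and 796 CPM in WT and 294, 1673, 1311 and 825 CPM in Dp1Tyb. Dp1Tyb library 1 was lowest and WT library 2 and Dp1Tyb libraries 2 and 3 were the 3 highest, as they were for Igfbp2. The 6 smooth muscle genes had the same library lowest and the same 3 highest, with 586, 2319, 595 and 786 CPM in WT and 477, 2831, 1866 and 1430 CPM in Dp1Tyb. Mki67, a marker of cycling cells, ranged from 76.3 CPM in Dp1Tyb library 1 to 706 CPM in WT library 2. The summed level of 8 macrophage genes, all counted, was 374, 273, 329 and 292 CPM in WT and 306, 210, 195 and 152 CPM in Dp1Tyb. WT library 1 was highest and Dp1Tyb library 4 lowest, as they were for Igf1. Of the listed genes, Lyz2, Cd68, Adgre1, Fcer1g and Tyrobp were highest in WT library 1. Ptprc, Csf1r and Cd14 were lower there than in every other WT library. The summed 6 adipocyte genes were also highest in WT library 1 and lowest in Dp1Tyb library 4. They reached 293, 179, 231 and 154 CPM in WT and 164, 117, 131 and 96.8 CPM in Dp1Tyb. Lpl made up most of that sum, with 259 CPM in WT library 1 and 74.2 CPM in Dp1Tyb library 4. In WT library 1 Fabp4 was also at its highest, while Pparg, Adipoq and Plin1 were lower than in every other WT library, and Cebpa lay between. Lyz2 contributed most to the macrophage sum, with 92.1 to 243 CPM, and Ptprc, the pan-leucocyte marker, had 13.7 to 15.1 CPM in WT and 7.08 to 8.25 CPM in Dp1Tyb. For Ptprc and Tyrobp every Dp1Tyb library lay below every WT library, as for 1.52% of all genes. Lyz2, Cd68, Adgre1, Csf1r, Fcer1g and Cd14 overlapped between genotypes. Dp1Tyb libraries 2, 3 and 4, which lay above every WT library for Igfbp7, lay below every WT library for the macrophage and adipocyte sums. The libraries highest for Igfbp7 were Dp1Tyb libraries 2, 3 and 4 and WT library 2. They were also the highest for the smooth muscle and fibroblast sums and for the sums of 6 myogenic and 5 epithelial genes. Des is in both muscle lists, and its 19.1 to 30.3 CPM in these libraries stood beside myogenic sums of 41.3 to 58.1 CPM. Myod1, Myf5, Pax7 and Ckm of the myogenic list were not in the count table. The lists set beside Igfbp2, Igf1 and Igfbp7 were picked after the values were seen, and their part in the results was not tested.

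**Figure D5:**
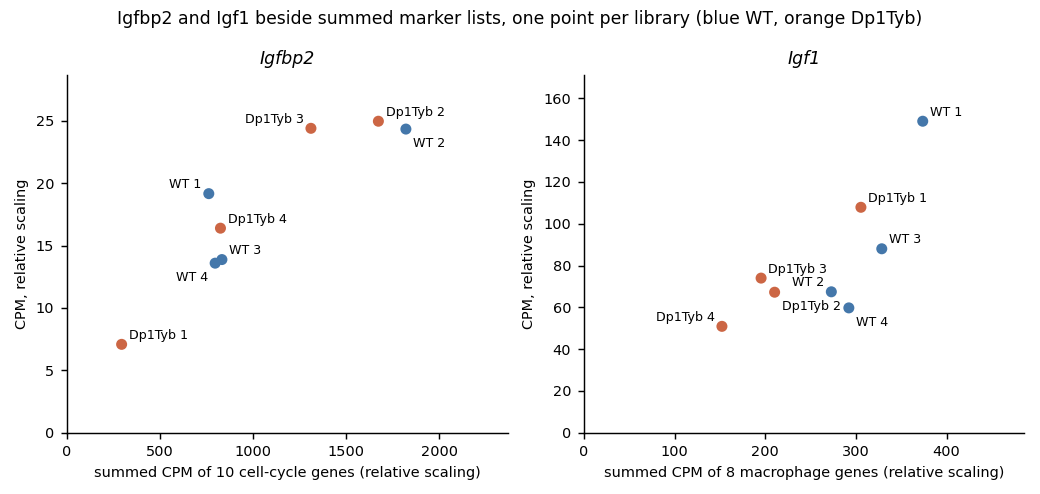
Igfbp2 against the summed level of 10 cell-cycle genes and Igf1 against that of 8 macrophage genes, all in CPM with relative normalisation, one point per library (blue WT, orange Dp1Tyb). Dp1Tyb 1 is lowest on both axes of the Igfbp2 panel (294 and 7.08 CPM), and WT 1 is highest on both axes of the Igf1 panel (374 and 149 CPM).

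For the 3 members with the widest spread, the genes of most similar pattern over the 8 libraries were sought among the 11001 genes whose counts averaged 100 or more. Igfbp2 was most like 2900097C17Rik (Pearson's r of 0.994, Spearman's rho of 0.929), Rad54b (0.992 and 0.905), which encodes a DNA recombination protein, and Ccnf (0.992 and 0.905), which encodes a cyclin of the G2 phase. Igf1 was most like Creg1 (0.982 and 0.976), Zfp287 (0.981 and 0.976) and A430033K04Rik (0.974 and 0.952). Igfbp3 was most like Zdhhc1 (0.980 and 0.976), Adamtsl1 (0.974 and 0.857) and Islr (0.973 and 0.881). Without the 2 libraries farthest from each member's median, r was 0.978 to 0.986 for the genes beside Igfbp2, 0.885 to 0.963 beside Igf1 and 0.897 to 0.939 beside Igfbp3. These values describe the closest of many genes in 8 libraries that share culture conditions and differ in depth, and they carry no test.

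Other genes of the IGF axis were read from a list of 42 symbols covering the second ligand, receptors, adaptors, the PI3 kinase to mTOR pathway, FOXO factors, stanniocalcins, proteases and IGF2 mRNA-binding proteins. Of 37 tested, 0 passed the edgeR test in either direction under either normalisation, and the median log2 fold change was −0.02 with relative and 0.10 with spike-in normalisation, beside 0.01 and 0.11 for all genes. With relative normalisation 16 were higher and 21 lower in Dp1Tyb, and with spike-in normalisation 33 were higher and 4 lower. The 1 gene below 0.05 before adjustment with relative normalisation was Eif4ebp1, which encodes a translation repressor controlled by mTOR, with 46.9, 65.0, 51.6 and 45.1 CPM in WT and 63.3, 83.7, 64.1 and 56.0 CPM in Dp1Tyb. Its groups overlapped through WT library 2, and its log2 fold change was 0.36 (SE 0.16). The edgeR p was 0.0460 unadjusted and 1.00 adjusted. With spike-in normalisation every Dp1Tyb library lay above every WT library, as for 0.285% of all genes, with a log2 fold change of 0.44 (SE 0.32) and edgeR p-values of 0.167 unadjusted and 1.00 adjusted.

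Igf2, the fetal ligand, was far more abundant than Igf1 in every library, at a mean of 653 RPKM. It had 3553, 3493, 3763 and 2849 CPM in WT and 4449, 3210, 4677 and 3896 CPM in Dp1Tyb, with overlapping groups and a log2 fold change of 0.25 (SE 0.16). Igf2r, the clearance receptor for IGF2, had −0.02 (SE 0.21) and Insr, the insulin receptor gene, 0.02 (SE 0.097). Irs1 and Irs2, the insulin receptor substrates, had 0.25 (SE 0.29) and −0.31 (SE 0.27), and Dp1Tyb library 1 was the highest for Irs1 at 241 CPM and the lowest for Irs2 at 29.4 CPM. Stc1 and Stc2, whose products inhibit pappalysins, had 0.31 (SE 0.31) and 0.33 (SE 0.24). None of these differences passed the edgeR test, with an adjusted p of 1.00 for each. The lowest unadjusted edgeR p among them was 0.144, for Igf2.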

How the data were processed

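The file analysed holds raw counts per gene for 8 libraries and 63 ERCC spike-ins. Per the study's methods, before the counts were deposited the authors trimmed adapters with Trim Galore, mapped paired reads with TopHat2 2.0.12 to GRCm38 with the spike-in sequences added, discarded reads with several alignments and counted reads per gene with HTSeq. The annotation release and the strand option are not given in the sources used here. A table of scaled values and a table of the authors' own comparison (fold changes and p-values) were not used. Gene IDs were matched to GENCODE M21 (19318 matched, 175 not). edgeR 4.0.16 (R 4.3.3) removed low genes with filterByExpr, leaving 16470 with 99.91% of endogenous counts, and fitted quasi-likelihood models without covariates to the 8 libraries. Libraries were scaled by TMM (relative normalisation) or by medians of ratios over the spike-ins, p-values were adjusted by the Benjamini-Hochberg method over all 16470 genes, and 0.05 was the threshold. Library sizes were 17698900 to 26471758 counts. Spread, shares and similar genes were computed from log2 CPM with a pseudocount of 0.5 counts or from RPKM with union exon length. The model code was tested on simulated counts, where it recovered 56.9% of genes changed 2-fold and 89.9% of genes changed 4-fold with relative normalisation, and 18.2% and 87.7% with spike-in normalisation. Alternatives were other scaling factors, DESeq2 1.42.0, all genes unfiltered, a filter of 10 counts in each library, the replicate number as a block and leaving out each library. All members are named, with the IGF axis genes called, those with the largest change below 0.05 before adjustment (at most 3) and 7 chosen by role, and the 3 genes most like each of the 3 most variable members. H19, another gene of the IGF axis list, is also named, outside this rule and with its values known. Members, gene lists and alternatives were chosen with earlier results of these data known.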

Additional observations from a re-analysis of the deposited data

Results flagged for a closer look

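Among 40 groups of 4 libraries, that is each of the 10 genes in each genotype under both normalisations, 3 had 1 library whose gap to the nearest other on the log2 CPM scale, divided by the range of the group on that scale, was above Dixon's 95% critical value for 4 samples. About 1 in 20 such groups exceeds it by chance. For Igf1 with spike-in normalisation the WT library 1 value of 177 CPM stood apart from 59.5 to 69.8 CPM in the other WT libraries (log2 ratio of gap to range 0.853). For Igf1r with relative normalisation Dp1Tyb library 2, at 176 CPM, stood below 214 to 222 CPM in the other Dp1Tyb libraries (log2 ratio 0.841). For Pappa with relative normalisation Dp1Tyb library 1, at 208 CPM, stood below 363 to 405 CPM (log2 ratio 0.838).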

How the results depend on the processing

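Across 280 alternative fold changes of the members, 14 settings for each gene and normalisation, 0 passed the edgeR or DESeq2 test after adjustment and 31 had the other sign than the value reported. Igfbp4, Igfbp6 and Igfbp7 kept their sign in every setting under both normalisations. Igfbp7 with relative normalisation ranged from 0.34 to 0.56 when single libraries were left out and from 0.39 to 0.44 otherwise, with an adjusted p of 0.190 to 1.00. Signs turned with medians of ratios over the genes for Igf1r (0.0044) and Pappa (0.0041) and with upper-quartile factors for Igfbp2 (−0.018), all from values near 0. Libraries numbered alike did not deviate together throughout: the correlations of their deviations were 0.375, 0.605, −0.030 and 0.393. Between libraries numbered differently they ran from −0.54 to 0.36, below all like-numbered values but −0.030. The labels do not say what the numbers mark, so the main tests did not pair the cultures, and a pairing was not tested. With the replicate block 0 members were called, 7 of all genes with relative and 9 with spike-in normalisation; Igfbp2 stood at −0.057 and Igfbp7 at 0.44. The edgeR p-values with that block were 0.00112 unadjusted and 0.190 adjusted for Igfbp7, and 0.0369 and 0.492 for Igf1. DESeq2 called 52 of all genes with relative normalisation, 0 of them members.

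When 1 library was left out at a time, the relative log2 fold changes ran from −0.51 to 0.071 for Igf1, −0.066 to 0.068 for Igf1r, −0.16 to 0.30 for Igfbp2, −0.41 to 0.15 for Igfbp3, 0.049 to 0.35 for Igfbp4, −0.0081 to 0.17 for Igfbp5, 0.064 to 0.34 for Igfbp6, −0.12 to 0.17 for Pappa and −0.056 to 0.014 for Igf2bp2. With spike-in normalisation they ran from −0.53 to 0.33 for Igf1, −0.015 to 0.35 for Igf1r, −0.14 to 0.31 for Igfbp2, −0.39 to 0.36 for Igfbp3, 0.35 to 0.69 for Igfbp7, −0.080 to 0.25 for Pappa and −0.063 to 0.27 for Igf2bp2. Igf1 and Igfbp3 turned when WT library 1 was left out; the cause was not tested. Shares of the binding protein pool depended on the division by exon length: without it Igfbp5 made up 60.1% and Igfbp7 8.78%. With 4 cultures a genotype, the test on simulated counts recovered 6.78% of 1.5-fold and 56.9% of 2-fold changes with relative normalisation, and 1.25% and 18.2% with spike-in normalisation, so most changes of 1.5-fold would be missed.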

Other observations

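Igf1os is a gene antisense to Igf1 whose exons do not overlap those of Igf1. It had 17, 24, 15 and 13 counts in WT and 9, 4, 4 and 4 counts in Dp1Tyb. Every Dp1Tyb library lay below every WT library, also under both normalisations. The same held for 1.52% of all tested genes with relative and 0.14% with spike-in normalisation. Igf1os rests on 90 counts in all and passed the filter on low counts only through the WT libraries, where it is high. It was looked at because it overlaps Igf1, so no fold change or test is given. H19, the imprinted neighbour of Igf2, had 7926 CPM in WT library 1, beside 2118 to 4535 CPM in the other 7 libraries, the library that was also highest for Igf1, Igfbp3 and Igfbp5.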
